A study of Mus musculus with 162 samples.

Results

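The olfactory bulb (OB) of fed and briefly fasted mice was set against 3 other brain regions of the same mice, across all genes and fasting times. The OB libraries were chosen by the organ in their labels, which gave 18 of the 162 libraries of the series. They were compared with 52 libraries of the other regions: BRN (the telencephalon and diencephalon left after the OB was removed, 16 libraries), CBL (the cerebellum, 18 libraries) and BST (the brainstem, made of mesencephalon, pons and myelencephalon, 18 libraries). All mice were adult C57BL/6J males, either fed ad libitum (0 h) or fasted for 2, 8, 12, 18 or 22 h, with 3 mice at each time. All were killed at 1 time of day, soon after lights-off, and each of the 18 mice gave 9 organs. Each library held the polyadenylated RNA of 1 organ of 1 mouse, and its values were reads counted per gene. Total counts ran from 8224940 to 17704828 in OB libraries (median 11630035), from 3045845 to 12108290 in BRN, from 6487419 to 22071004 in CBL and from 6998492 to 11776354 in BST. BRN 8 h replicate 3 (130701 counts) and BRN 18 h replicate 1 (279848 counts) were left out, so BRN had 2 mice at 8 and 18 h and 3 at the other times.

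The olfactory bulb is the first relay of smell. Axons of sensory neurons in the nose end in its glomeruli, where they contact mitral and tufted cells, the glutamatergic output neurons, and periglomerular interneurons, some of which make dopamine. Most of its neurons are GABAergic granule cells, which are replaced through life by neuroblasts that migrate in from the forebrain ventricle wall, and glia called olfactory ensheathing cells wrap the incoming axons.

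Each OB library correlated best with the mean profile of its own region, the library itself left out. This Pearson r across 18496 genes was 0.985 to 0.997 in 18 of 18, genes not being independent replicates. OB 18 h replicate 1 had the lowest of these, 0.985. BRN libraries were less alike: the same value had a median of 0.975 and was lowest in BRN 18 h replicate 2, followed by 12 h replicate 2 (0.931), where it was 0.994 to 0.996 in CBL and 0.993 to 0.996 in BST. The OB mean profile correlated with that of BRN at 0.940, of BST at 0.923 and of CBL at 0.918 across the same genes. Some OB libraries stood apart for particular gene groups. OB 0 h replicate 3 held 326.4 normalised CPM (counts scaled to the size of each library) of Ttr, the transthyretin gene of the choroid plexus, where the other OB libraries held 0.385 to 8.52, and it had the lowest level of the sensory neuron transcript Omp, 77.19, where the others held 145.7 to 344.96. OB 0 h replicate 1 and OB 18 h replicate 1 had immediate early gene sums of 403.3 and 377.4 normalised CPM, where the other 16 OB libraries lay between 989.5 and 1614. OB 12 h replicate 2 held 184.5 normalised CPM of neutrophil granule genes, and the next highest OB library, 2 h replicate 2, held 83.85. The latter mouse was also the highest in BRN (28.60), CBL (61.33) and BST (86.57), while the former held 14.30, 14.27 and 8.83 there. By the flow-cell lanes in the labels, OB was sequenced in lanes 3 and 4, CBL in lane 3, BST in lane 4 and BRN in lanes 1 to 5, so that region and lane overlapped in part. Within OB, lane followed fasting time: all libraries of 0 and 2 h and replicates 1 and 2 of 8 h were in lane 3, and the rest in lane 4. Some BRN libraries share both sample number and lane with libraries of other organs, so equal lane numbers need not be the same run, and a lane term does not take out differences between runs.

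Both marker genes of the bulb set it apart. Th (ENSMUSG00000000214.11, chr7:142892752-142931128 on GRCm38) codes tyrosine hydroxylase, the rate-limiting enzyme of dopamine synthesis. It lay at 205.3 to 296.6 normalised CPM in OB (median 246.7), 10.63 to 27.71 in BRN (median 18.19), 4.33 to 12.43 in CBL (median 9.00) and 11.97 to 23.79 in BST (median 16.002). All 18 OB libraries were above all 52 others. The log2 fold change (log2FC, OB minus the other region, ± SE, averaged over the 6 fasting times) was 3.66 ± 0.101 against BRN, 4.79 ± 0.0989 against CBL and 3.90 ± 0.0924 against BST, with edgeR adjusted p of 3.87e-37, 1.00e-43 and 1.00e-40. Eomes (ENSMUSG00000032446.14, chr9:118478212-118486132) codes a T-box transcription factor of mitral and tufted cells that unipolar brush cells of the cerebellum also make. It lay at 109.95 to 176.1 normalised CPM in OB (median 147.9), 0 to 2.40 in BRN (median 0.781), 13.94 to 62.76 in CBL (median 31.69) and 0.632 to 2.25 in BST (median 1.37). Again each OB library was above each other library, and CBL was the nearest region. The log2FC of Eomes was 7.26 ± 0.224 against BRN, 2.26 ± 0.126 against CBL and 6.72 ± 0.181 against BST, with adjusted p of 1.63e-32, 6.82e-22 and 2.19e-35. In bulk tissue, fewer cells of a type and less RNA per cell cannot be told apart. The smallest log2FC of Th was 3.63 with a lane term and 3.67 with mouse as a block, and that of Eomes 2.27 and 2.30.

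**Figure D1:**
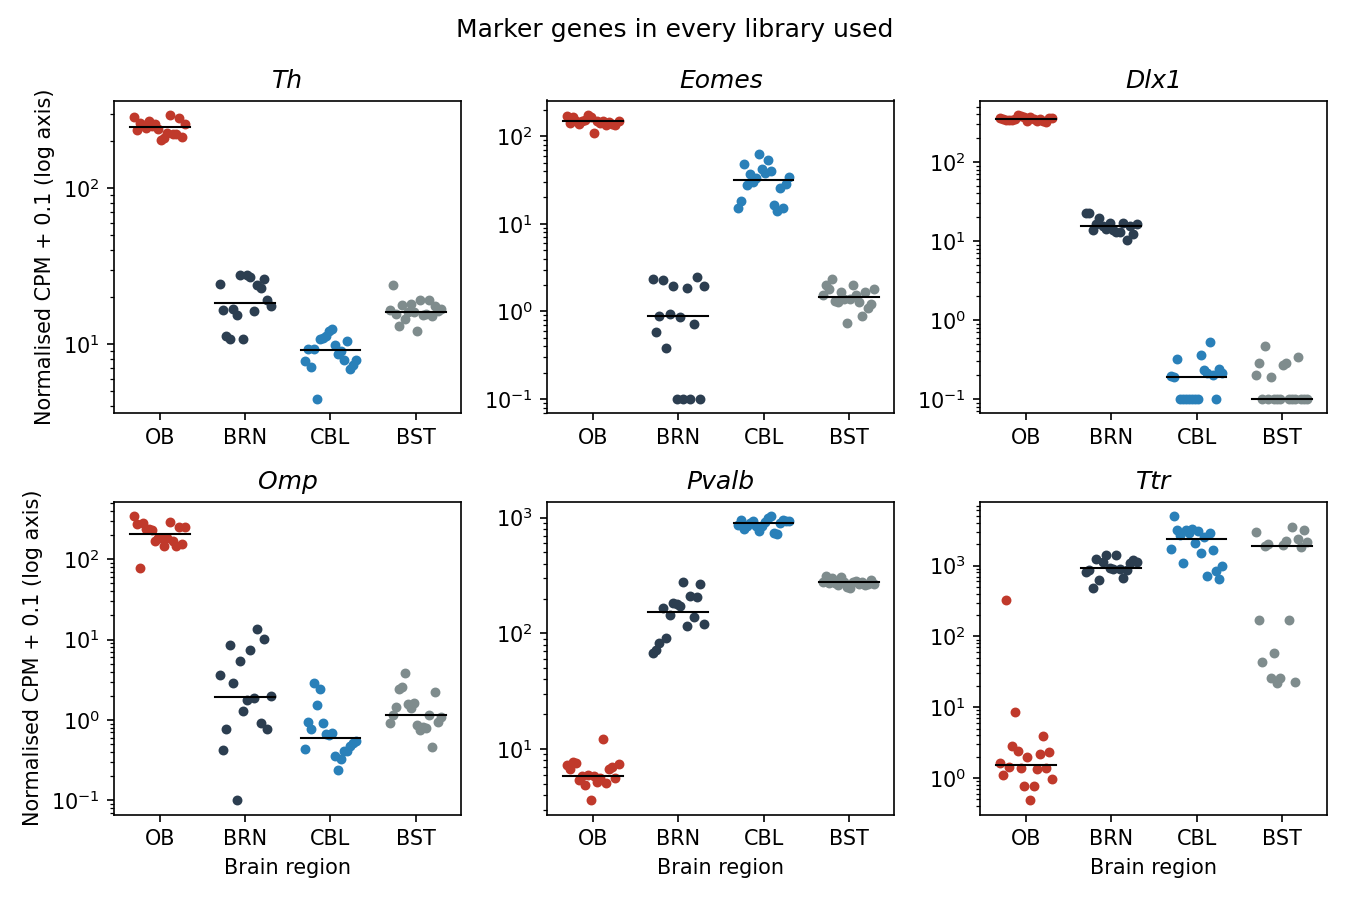
Normalised CPM plus 0.1, on log axes, of Th, Eomes, Dlx1, Omp, Pvalb and Ttr in all 70 libraries by region, with each point 1 library in order of fasting time and a line at the median. OB lies above all other libraries for Th (205.3 to 296.6), Eomes, Dlx1 and Omp and below them for Pvalb, while Ttr is low in OB except for 326.4 in OB 0 h replicate 3.

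Of 18496 genes tested, 716 (3.87%) were higher in OB than in each of the 3 regions, at an adjusted p under 0.05 and a log2FC over 1 in each comparison, and 612 (3.31%) were lower than in each. These are the genes called higher and lower in what follows. The 3 comparisons share the OB libraries. Against BRN alone, 2254 genes (12.2%) were higher and 2369 (12.8%) lower. Against CBL, 2465 (13.3%) were higher and 2037 (11.0%) lower, and against BST 2255 (12.2%) were higher and 2537 (13.7%) lower. The median log2FC of all genes tested was 0.02, -0.01 and 0.04 against BRN, CBL and BST. Every OB library lay above every other library for 574 genes (3.10%) and below for 300 (1.62%), among them 53.8% of the 716 and 27.5% of the 612. BRN was the region with the nearest level for 42.2% of the 716 higher genes, BST for 36.3% and CBL for 21.5%. For the 612 lower genes the nearest was CBL in 263, BRN in 38.2% and BST in 18.8%. The smallest of the 3 differences exceeded a log2FC of 3 for 18.4% of the higher genes and a fall of 3 for 12.3% of the lower ones. With lane as a term, 589 genes were higher and 544 lower, 556 and 496 of them shared with the calls above; with mouse as a block the counts were 731 and 603. Without the mice of replicate 3, 347 were lower than each region, and against BRN alone 3571 were higher.

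The 20 genes with the largest smallest difference were taken from those above every other library and with at least 5 normalised CPM in OB. Of the lists given below, that of output neurons held Tbx21, Cdhr1 and Doc2g, and that of interneurons held Scgn and Sp8. The sensory neuron list held Omp, S100a5 and Stoml3, and the others of the 20 were on none of these lists. Ms4a15, a membrane-spanning protein gene, led the 20 at 94.06 to 142.8 normalised CPM in OB, 0 to 4.64 in BRN (median 0.255), 0 to 0.487 in CBL (median 0.116) and 0 to 0.306 in BST (median 0). Its log2FC was 8.28 against BRN and 9.59 against CBL, and it was at least 271.2-fold higher than in BST, where each library had 3 counts or fewer. Such bounds set the other region at 3 counts per library, and they cover counting error only. Tbx21, another T-box factor of mitral and tufted cells, lay at 31.79 to 52.53 in OB and was at least 90.39-fold above CBL and 93.26-fold above BST. Cdhr1, a cadherin-related adhesion protein gene, lay at 515.6 to 709.3 normalised CPM in OB (median 603.97), 4.03 to 28.98 in BRN (median 10.91), 0.483 to 2.71 in CBL (median 1.27) and 2.38 to 4.65 in BST (median 3.20). Its smallest log2FC, against BRN, was 5.69. Doc2g, which codes a double C2 domain protein, reached 243.4 normalised CPM in the median OB library, and its median in the other regions lay between 3.01 (CBL) and 6.28 (BRN).

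Several of the 20 code for channels, receptors and membrane proteins. Frmd7, a FERM domain protein gene, lay at 55.13 to 121.7 normalised CPM in OB and at no more than 3.34 in any other library. Shisa3 lay at 100.5 to 143.8 and at no more than 5.86 elsewhere. Trdn, the gene of the calcium-release protein triadin, had an OB median of 15.94 and was at least 37.64-fold higher than in BST. As for all of the 20, the rule that chose them put the lowest OB library above the highest other library. Chrna10, a nicotinic acetylcholine receptor subunit, had an OB median of 13.90 and a log2FC of 5.63 against BRN. Cldn19, a tight-junction claudin, had an OB median of 8.81 and a log2FC of 4.90 against BRN. Hephl1, a relative of the copper oxidase hephaestin, had an OB median of 5.83, and its log2FC against BRN was 7.17. With a lane term Hephl1 lost its call although its log2FC there was 6.94, as did the long noncoding gene Gm34838 (OB median 8.84) at 7.21.

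Others of the 20 were of mixed kinds. Nppa, the gene of atrial natriuretic peptide, lay at 12.75 to 25.16 normalised CPM in OB (median 17.22), with a median of 0.377 in BRN, and it was at least 41.45-fold above CBL. Its log2FC against BRN was 5.28, and the call was lost with a lane term (4.21). Adamts19, a secreted metalloprotease gene, had an OB median of 20.72 and a log2FC of 5.45 against BST, the nearest region. Cpa6, a carboxypeptidase gene, had an OB median of 17.08 and a log2FC of 5.03 against BRN. Klhl30, which codes a kelch-like protein, had an OB median of 17.98 and a log2FC of 6.07 against BRN. The remaining members, Scgn, Sp8, Omp, S100a5 and Stoml3, belong to the cell groups described next.

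Per length of transcript (RPKM, counts scaled to library size and exon length), 5 genes led those called higher. Pcp4l1, related to the calmodulin-binding Purkinje cell protein Pcp4, had 579.3 RPKM in OB. S100a5, a calcium-binding protein gene of sensory neurons, had 296.96, Fabp7, the brain lipid-binding protein of glia, 284.7, Gng4, a G protein gamma subunit, 268.97, and Gad1, which makes GABA from glutamate, 266.6. Gad1 and Gng4 belong to the interneurons, Fabp7 to ensheathing glia among other cells, and S100a5 to the sensory input. Pcp4l1 lay at 817.3 to 1114 normalised CPM in OB, and its log2FC was 2.51 ± 0.0598 against BRN, 3.37 ± 0.0578 against CBL and 1.57 ± 0.0535 against BST.

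Of the 28 lists, that of GABAergic interneurons had the most genes called higher. Of 22 genes of granule and periglomerular cells, all tested, 13 were higher in OB than in each region and none was lower, against 3.87% and 3.31% of all genes tested. Their median log2FC was 2.85, 3.09 and 2.95 against BRN, CBL and BST, where all genes had 0.02, -0.01 and 0.04. Their summed level was 7209 to 8287 in OB (median 7674), 1021 to 1753 in BRN (1426), 2494 to 3138 in CBL (2926) and 1378 to 1525 in BST (1435) normalised CPM. Gad1 lay at 1812 to 2292 normalised CPM in OB (median 2050.5), 249.2 to 453.8 in BRN (median 348.4), 434.6 to 707.1 in CBL (median 597.4) and 250.6 to 337.4 in BST (median 279.9). Its OB libraries were all above the others, with log2FC 2.55 ± 0.0534 against BRN, 1.81 ± 0.0483 against CBL and 2.83 ± 0.0502 against BST. Gad2, the second GABA-making enzyme, and Slc32a1, the vesicular GABA transporter, were also above the others in every OB library, but their log2FC against BST was 0.73 and 0.64, under the threshold.

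Transcription factors of forebrain interneurons were near 0 in CBL or BST in several cases. Dlx1, a distal-less homeobox gene, lay at 322.7 to 395.5 normalised CPM in OB (median 346.9), 10.15 to 22.57 in BRN (median 15.24), 0 to 0.422 in CBL (median 0.0924) and 0 to 0.375 in BST (median 0). The OB libraries were all far above BRN, the nearest region, with a log2FC of 4.52. Dlx2 was at least 154.6-fold above CBL and Dlx5 at least 102.4-fold, with log2FC against BRN of 4.13 and 3.50. Dlx6 overlapped with BRN in level and had a log2FC of 1.17 there. Sp8, a zinc-finger factor of bulb interneurons, lay at 123.8 to 171.4 normalised CPM in OB, and its paralogue Sp9 at 60.53 to 84.85. Sp8 had a log2FC of 5.60 against BRN and was at least 337.6-fold above CBL. Meis2, a TALE homeobox factor, lay at 733.03 to 938.8 normalised CPM in OB (median 821.96), 73.78 to 155.5 in BRN (median 101.9), 4.04 to 35.60 in CBL (median 24.24) and 127.5 to 168.5 in BST (median 154.7). Tshz1, a teashirt zinc-finger factor of granule cells, had log2FC of 4.20, 3.36 and 3.05 against BRN, CBL and BST. Pax6, a paired-box factor of periglomerular dopaminergic precursors that cerebellar granule cells share, was higher than BRN (3.01) and BST (2.85) and had -0.57 against CBL.

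Calcium-binding and synaptic products went separate ways. Scgn, the gene of secretagogin, lay at 43.54 to 77.12 normalised CPM in OB (median 55.88), with medians of 1.06 in BRN and 0.314 in BST. It was at least 129.7-fold above CBL. Synpr, the synaptic vesicle protein synaptoporin, had log2FC of 2.85, 2.81 and 4.12 against BRN, CBL and BST. Calb2, the gene of calretinin, was the most abundant of the list per length, at 408.2 RPKM, and lay at 578.4 to 1031 normalised CPM in OB (median 708.98), 68.95 to 148.4 in BRN (median 96.59), 401.5 to 518.4 in CBL (median 476.7) and 148.4 to 192.4 in BST (median 179.1). It was above every other library in each OB library, yet its log2FC against CBL was 0.59. The calcium buffer genes Calb1 and Pvalb were lower than in each region, as given below. Penk, the enkephalin precursor, overlapped with BRN (log2FC -0.09). Zic1, a zinc-finger factor shared with cerebellar granule cells, was lower than in CBL (-2.53) and higher than in BRN (2.47), and Neurod1 was lower than in CBL (-5.23).

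**Figure D2:**
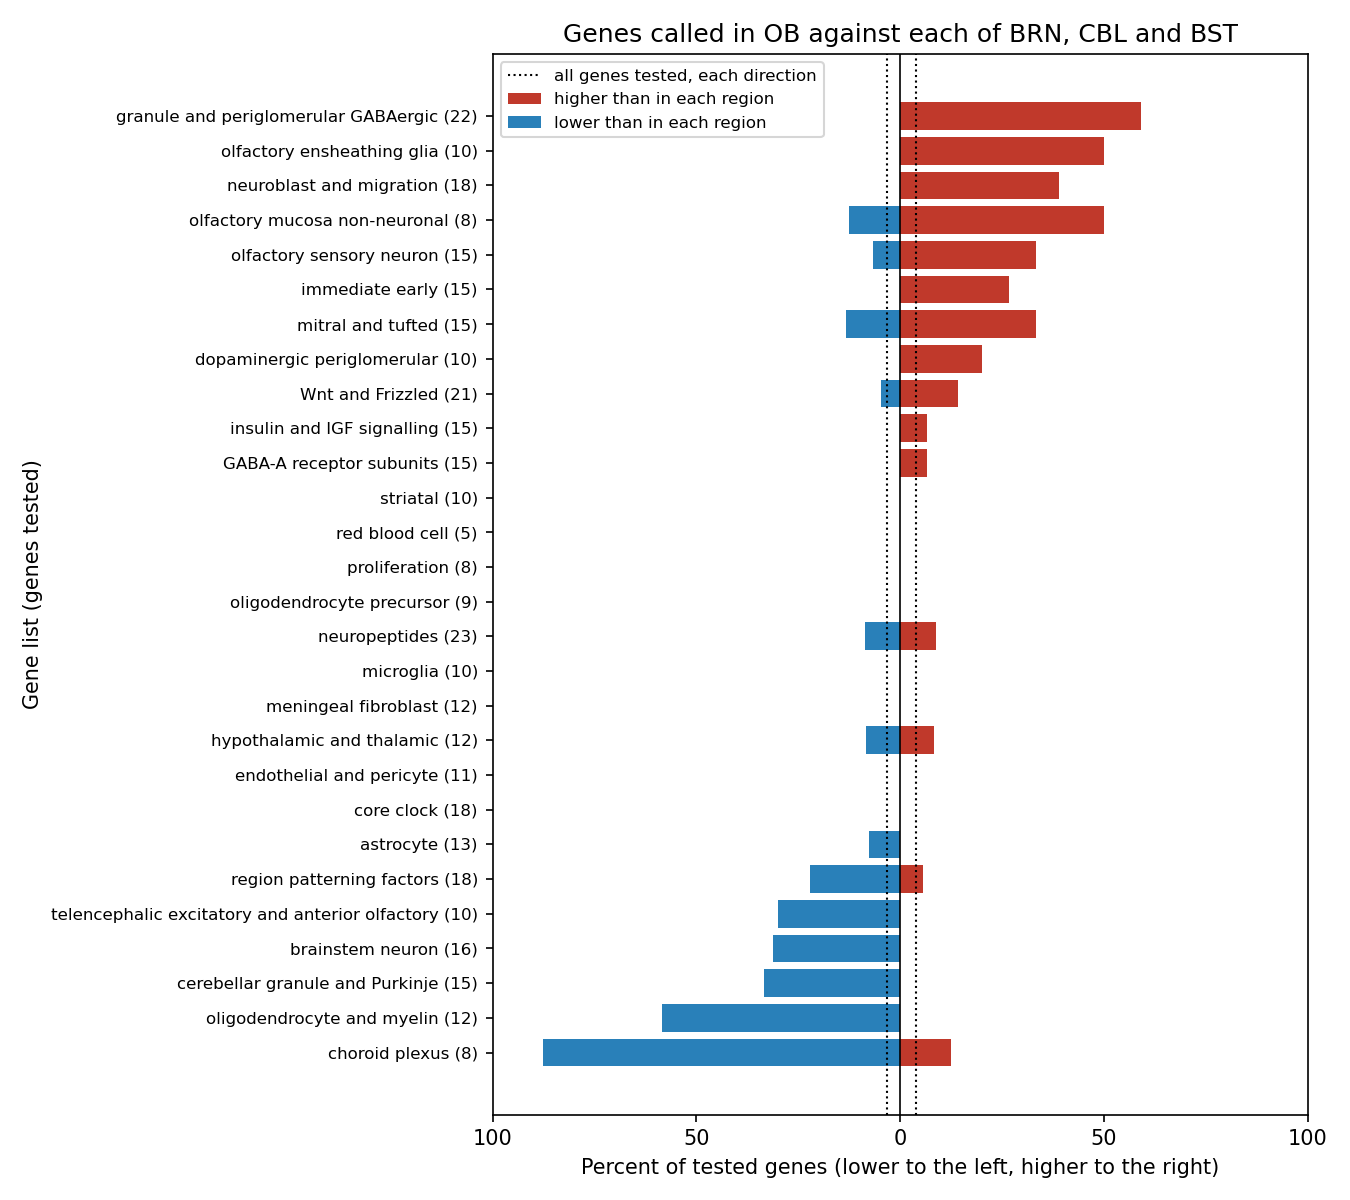
Percent of the tested genes of each of the 28 lists fixed before the fit, with earlier results of these data known, that were higher (bars to the right) or lower (bars to the left) in OB than in each of BRN, CBL and BST, with the number tested in brackets and dotted lines at 3.87% and 3.31%, the shares of all genes tested. The GABAergic interneuron list has 13 of 22 genes higher and the myelin list 7 of 12 lower.

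Among genes of dopaminergic periglomerular cells, 2 of 10 tested (12 listed) were higher than in each region, Th among them, and none was lower, with a median log2FC of 0.07, 0.61 and 0.26. The list's summed level was 879.4 to 1136 in OB (median 997.4), 295.6 to 444.1 in BRN (357.4), 534.8 to 679.5 in CBL (633.95) and 290.3 to 422.2 in BST (338.1) normalised CPM. The rest of the dopamine pathway did not follow Th. Ddc, which turns L-DOPA into dopamine, had a median of 10.20 in OB and was lower than in BRN (-1.19) and BST (-2.13). Slc6a3, the dopamine transporter, overlapped with BRN (-0.65), and Slc18a2, the vesicular monoamine transporter, was lower than in BST (-2.78). Drd2, the D2 dopamine receptor, was lower than in BRN (-3.71) and BST (-2.12). Etv1, an ETS factor of bulb dopaminergic neurons and of cerebellar granule cells, was higher than in BRN and lower than in CBL (-1.44). Foxa2 and Pitx3, factors of midbrain dopamine neurons, had medians of 0 in OB and did not pass the filter on low counts.

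Of 15 genes of mitral and tufted cells, all tested, 5 were higher than in each region (Eomes, Tbx21, Cdhr1, Doc2g and Nmb) and 2 were lower (Slc17a6 and Uncx). The median log2FC was 0.23, 0.55 and 2.88, and the sum was 2014 to 2523 in OB (median 2175), 1118 to 1708 in BRN (1511), 930.99 to 1096 in CBL (996.5) and 492.3 to 582.1 in BST (515.4) normalised CPM. Nmb, the gene of the peptide neuromedin B, lay at 34.99 to 62.43 normalised CPM in OB (median 45.61), 1.30 to 10.15 in BRN (median 4.52), 0.439 to 2.04 in CBL (median 1.25) and 1.41 to 3.88 in BST (median 2.09). Each OB library exceeded each other library, with log2FC 3.13 ± 0.113 against BRN, 5.15 ± 0.123 against CBL and 4.40 ± 0.114 against BST. The vesicular glutamate transporters went separate ways. Slc17a7, also made by cortical and cerebellar neurons, was the most abundant of the list at 140.98 RPKM and had log2FC of -0.44 against BRN and 2.82 against BST. Slc17a6 had a median of 28.16 in OB and 297.2 in BST, and its smallest fall, -1.07 against BRN, was lost as a call without the mice of replicate 3 (-0.84) and with scaling by library totals (-0.90), while Uncx lost its call without the mice of replicate 3 (-1.10). Reln, an extracellular glycoprotein, was higher than in BRN (1.71) and BST (2.05) and level with CBL (-0.06). Tbr1, a T-box factor also of cortical projection neurons, was lower than in BRN (-2.02) and higher than in CBL (4.48) and BST (5.52).

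Genes of migrating neuroblasts were higher as a subset. Of 18 tested, 7 were higher than in each region (Dcx, Sox11, Sox4, Igfbpl1, Prokr2, Prok2 and Robo2) and none was lower, with a median log2FC of 1.24, 1.99 and 0.20 and a sum of 1649 to 2045 in OB (median 1885), 795.9 to 1364 in BRN (1103), 1865 to 2232 in CBL (2083) and 1323 to 1465 in BST (1403) normalised CPM. Dcx, the microtubule protein doublecortin, lay at 165.9 to 286.2 normalised CPM in OB (median 248.8), 8.78 to 44.05 in BRN (median 26.09), 3.52 to 7.60 in CBL (median 5.74) and 12.20 to 16.07 in BST (median 14.09). All OB libraries were above the others, with log2FC 3.21 ± 0.0798 against BRN, 5.43 ± 0.0850 against CBL and 4.09 ± 0.0763 against BST. Sox4, an SRY-box factor, had log2FC 3.60 ± 0.0852 against BRN, 4.05 ± 0.0779 against CBL and 3.88 ± 0.0766 against BST. Prok2, the secreted prokineticin that guides neuroblasts into the bulb, had an OB median of 3.24 and a log2FC of 4.90 against BRN, and its receptor gene Prokr2 an OB median of 20.35 and 3.29. Igfbpl1 had 2.72 against BRN. Sox11 had 1.04 there, close to the threshold, and lost its call in 8 of the settings, among them the length trend taken out (0.82, the lowest), the 18 h libraries left out (0.85), a lane term (0.87), the mice of replicate 2 left out (0.89) and the 2 shallow BRN libraries put back or BRN 2 h replicate 3 and 18 h replicate 2 left out (0.91 each). The Slit ligands of the Robo receptors were lower than in BRN, with log2FC of -2.12 for Slit1 and -2.53 for Slit2. None of 8 tested proliferation genes (10 listed) was called in either direction. Their sum was 9.38 to 17.90 in OB (median 11.32), 8.73 to 24.21 in BRN (16.19), 6.59 to 10.61 in CBL (8.07) and 7.82 to 13.14 in BST (10.44) normalised CPM, and the most abundant, Ccna2, had 0.807 RPKM in OB.

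Of 10 genes of olfactory ensheathing glia, all tested, 5 were higher than in each region (among them Fabp7, Frzb, Prss56 and Foxd3) and none was lower. The median log2FC was 3.10, 4.17 and 3.56 against BRN, CBL and BST, and 2.89, 4.10 and 3.56 with genes at 3 counts or fewer set at their bound. The list summed to 631.3 to 1051 in OB (median 755.9), 199.2 to 371.8 in BRN (223.00), 185.4 to 227.1 in CBL (207.4) and 199.5 to 268.8 in BST (230.6) normalised CPM. Fabp7 lay at 244.3 to 552.2 normalised CPM in OB (median 335.1), 13.67 to 73.81 in BRN (median 25.65), 23.61 to 46.89 in CBL (median 31.02) and 12.35 to 33.52 in BST (median 22.49). The OB libraries were all above the others, and the log2FC was 3.72 ± 0.131 against BRN, 3.46 ± 0.116 against CBL and 3.93 ± 0.119 against BST. Frzb, a secreted Wnt antagonist, had log2FC 2.47 ± 0.0793 against BRN, 4.87 ± 0.0869 against CBL and 4.06 ± 0.0808 against BST. Foxd3, a forkhead factor of neural crest derivatives, was at least 9.96-fold above BRN and 26.60-fold above CBL. Npy, the neuropeptide Y gene that ensheathing glia and interneurons both make, overlapped with BRN (0.26) and was higher than in CBL (2.87) and BST (3.61). Sox10 and Ngfr, shared with other glia, had log2FC of 0.32 and 1.03 against BRN.

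RNA of olfactory sensory neurons, whose cell bodies lie in the nose and whose axons end in the bulb, was present for some genes. Of 15 tested (16 listed), 5 were higher than in each region (Omp, Cnga2, Stoml3, Rtp2 and S100a5) and 1 was lower (Gnal), with a median log2FC of -0.06, 0.88 and 0.37. The sum was 1041 to 1607 in OB (median 1346), 1034 to 1320.5 in BRN (1127), 1088 to 1253 in CBL (1205) and 930.2 to 1048 in BST (996.4) normalised CPM. Omp, the marker protein of mature sensory neurons, lay at 77.19 to 344.96 normalised CPM in OB (median 207.02), 0 to 13.28 in BRN (median 1.82), 0.136 to 2.80 in CBL (median 0.492) and 0.360 to 3.74 in BST (median 1.04). Every OB library was above all others, and the log2FC was 5.94 ± 0.256 against BRN, 8.50 ± 0.283 against CBL and 7.45 ± 0.256 against BST. S100a5 lay at 63.46 to 208.98 normalised CPM in OB (median 114.3), 0 to 12.75 in BRN (median 0.650), 0 to 0.419 in CBL (median 0) and 0 to 0.783 in BST (median 0). Stoml3, a stomatin-like membrane protein gene, had an OB median of 50.27 and log2FC 5.53 ± 0.251 against BRN, 5.75 ± 0.222 against CBL and 5.35 ± 0.212 against BST. Genes of the ciliary transduction chain differed in direction. Gng13, a G protein gamma subunit, was higher than in BST (2.39) and lower than in CBL (-1.69). Cnga2, a subunit of the odor-gated channel, had an OB median of 2.32 and overlapped with BRN, and Cnga4 and Cngb1 had OB medians of 0.785 and 1.07. Gnal, the olfactory G protein alpha subunit that striatal and other neurons also make, was below every other library in OB, with log2FC -1.55 ± 0.0484 against BRN, -1.46 ± 0.0467 against CBL and -1.76 ± 0.0469 against BST. Trpc2, the channel of vomeronasal neurons, had no count in any library. Of 1405 odorant receptor genes (symbols that begin with Olfr, a family chosen after seeing the data), 11 passed the filter on low counts, of which 4 were called higher (Olfr110, Olfr1507, Olfr32 and Olfr727). A gene this low passes mainly where it is high, so the share called is set in part by the filter. The family summed to 28.77 to 76.20 normalised CPM in OB (median 46.07), with medians of 13.12 in BRN, 10.46 in CBL and 19.68 in BST. Of 556 vomeronasal receptor genes, 6 passed, and the same holds for the 3 called higher (Vmn1r-ps110, Vmn1r206 and Vmn2r1).

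Transcripts of the nasal lining varied widely between OB libraries. Of 8 tested genes of the non-neuronal olfactory mucosa (12 listed), 4 were higher than in each region (Cyp2g1, Cyp2a5, Obp2a and Sec14l3) and 1 was lower (Krt18). Their median log2FC was 2.62, 2.09 and 1.83, and the most abundant, Obp1a, had 15.31 RPKM in OB. Among all genes tested, 3.87% were higher and 3.31% lower. As with the odorant receptors, genes this low pass the filter mainly where they are high, so the share called is set in part by the filter. The sum was 3.07 to 121.2 in OB (median 20.17), 0 to 38.31 in BRN (7.51), 1.36 to 61.79 in CBL (8.68) and 0.186 to 54.03 in BST (7.86) normalised CPM. In the libraries of 0, 2 and 8 h it lay between 15.998 and 121.2, and among those of 12, 18 and 22 h it lay between 3.07 and 14.76 except for 90.71 in 18 h replicate 2. Obp2a, an odorant-binding lipocalin, ranged from 0.0641 to 46.72 in OB, and with a lane term its smallest log2FC, 1.84, became -1.55. Its call was also lost without the mice of replicate 2 (1.67) or 3 (1.40) and with the 18 h libraries left out (1.74). Sec14l3 had a smallest log2FC of 1.57 and lost its call with a lane term (1.25), without the mice of replicate 1 (1.30) or 2 (1.46) and with the 18 h libraries left out (0.64). Ugt2a1, a defining enzyme of this mucosa, had no count in any OB library. A set of 12 secretory genes of the airway lining, chosen after seeing that they were called higher, summed to 6.07 to 85.89 in OB (median 33.95), 0.324 to 17.01 in BRN (4.65), 0.909 to 26.78 in CBL (2.93) and 0.408 to 30.13 in BST (3.52) normalised CPM. It holds Bpifa1, Scgb1c1 and Obp2b, with OB ranges of 0.116 to 63.69, 0.232 to 13.50 and 0.116 to 34.16. With a lane term 4 of these 12 kept their calls, and Bpifa1 (1.18), Scgb1c1 (3.21) and Obp2b (-1.78) did not. Obp2b also lost its call without the mice of replicate 1 (1.57), 2 (1.16) or 3 (2.30) and with the 18 h libraries left out (1.48). Mup4, another of the 12, lost its call with mouse as a block (1.45), by DESeq2 (1.54) and with a lane term (-0.94). The call of Mup4 was also lost without the mice of replicate 1 (1.46), 2 (1.40) or 3 (1.67) and with the 18 h libraries left out (1.47). The part of nasal tissue in the sensory neuron values was not tested.

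Immediate early genes, which neurons switch on with activity, had a larger sum in each OB library than in any CBL or BST library. Of 15 tested, 4 were higher than in each region (Fosb, Fosl2, Egr2 and Nr4a1) and none was lower. Against BRN, CBL and BST alone, 5, 9 and 13 were higher, and the median log2FC was 0.64, 2.80 and 2.83. The sum was 377.4 to 1614 in OB (median 1231), 435.5 to 1207 in BRN (697.7), 207.6 to 361.1 in CBL (315.9) and 137.9 to 202.4 in BST (174.04) normalised CPM. OB 0 h replicate 1 and OB 18 h replicate 1 made the low end of OB. Some members went the other way against CBL, such as Dusp1, a phosphatase gene (-0.65). Fosl2, a Fos-family factor, had an OB median of 79.69 and log2FC 1.84 ± 0.171 against BRN, 3.07 ± 0.168 against CBL and 3.20 ± 0.169 against BST. Nr4a1, an orphan nuclear receptor, had an OB median of 199.4 and log2FC 1.20 ± 0.206 against BRN, 2.81 ± 0.208 against CBL and 4.33 ± 0.231 against BST. Fosb had log2FC 1.43 ± 0.162 against BRN, 5.04 ± 0.205 against CBL and 3.93 ± 0.181 against BST. Egr2, a zinc-finger factor, had 1.10 against BRN and lost its call with a lane term (0.80), with BRN 2 h replicate 3 and 18 h replicate 2 left out (0.93) and without the mice of replicate 2 (0.98). Egr1, the most abundant of the list per length at 67.68 RPKM, had a log2FC of 0.64 against BRN, and Arc, a synaptic plasticity gene, 0.35.

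Signalling genes differed member by member. In all genes tested, 3.87% were higher than in each region and 3.31% lower. Of 23 neuropeptide genes, 2 were higher than in each region (Trh and Nmb) and 2 were lower (Grp and Nppc). Their median log2FC was -1.78, 1.28 and -0.04 (-1.78, 1.31 and -0.18 with bounds). Trh, the precursor of thyrotropin-releasing hormone, lay at 100.8 to 153.8 normalised CPM in OB (median 126.4), 8.67 to 46.37 in BRN (median 17.48), 0 to 0.333 in CBL (median 0) and 13.80 to 31.85 in BST (median 25.55). Every OB library was above the hypothalamus-containing BRN, with log2FC 2.68 ± 0.118 against BRN, 10.68 ± 0.222 against CBL and 2.35 ± 0.105 against BST. Grp, gastrin-releasing peptide, had log2FC of -6.23, -3.77 and -4.90. Peptide genes of the hypothalamus differed in direction. Gal, the galanin precursor, was higher than in BRN (1.09) and CBL (4.02), and Cartpt was lower than in BRN (-1.86) and higher than in CBL (4.89). Pmch, the melanin-concentrating hormone precursor, had an OB median of 0.117 and a BRN median of 77.83, and Oxt, the oxytocin precursor, was at least 74.89-fold lower than in BRN. Of 21 tested Wnt pathway genes (22 listed), 3 were higher (Wnt5a, Frzb and Rspo3) and 1 lower (Rspo2), with a median log2FC of 0.29, 0.49 and 0.03. Wnt5a, a ligand, had log2FC 2.43 ± 0.113 against BRN, 2.90 ± 0.103 against CBL and 1.27 ± 0.0919 against BST, and Rspo3, a secreted Wnt enhancer, 1.32 ± 0.0852 against BRN, 2.08 ± 0.0819 against CBL and 2.70 ± 0.0857 against BST. Rspo2 stood at -1.004 against CBL, at the threshold, and lost its call without the mice of replicate 1 (-0.97) or 3 (-0.92), without OB 0 h replicate 3 alone (-0.998) and with the 2 shallow BRN libraries put back, scaling by library totals or no filter (-0.99 each). Nppc lost its call without the mice of replicate 3 (-0.64).

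Of 15 GABA-A receptor subunit genes, 1 was higher, Gabra5, and none lower, where 3.87% and 3.31% of all genes tested were. Their median log2FC was -0.03, 0.46 and 0.03. Gabra5, the alpha5 subunit, lay at 168.4 to 211.03 normalised CPM in OB (median 188.1), 26.56 to 68.93 in BRN (median 49.99), 1.05 to 8.12 in CBL (median 5.33) and 52.81 to 79.08 in BST (median 64.14). It was above all other libraries in OB, with log2FC 1.94 ± 0.104 against BRN, 5.26 ± 0.121 against CBL and 1.51 ± 0.0939 against BST. Gabra6, the cerebellar granule cell subunit, was at or under 3 counts in each OB library and at least 2745-fold lower than in CBL. Of 15 insulin and IGF signalling genes, 1 was higher, Igf1, with a median log2FC of 0.39, 0.38 and 0.26. Igf1, insulin-like growth factor 1, lay at 32.17 to 53.77 normalised CPM in OB (median 42.67), 2.34 to 17.39 in BRN (median 7.04), 5.19 to 10.77 in CBL (median 7.71) and 7.40 to 14.08 in BST (median 10.01). Its log2FC was 2.61 ± 0.0965 against BRN, 2.41 ± 0.0839 against CBL and 2.08 ± 0.0816 against BST, and Igf1r, its receptor, had 0.69, 0.23 and 0.26. None of 18 core clock genes was called in either direction, with a median log2FC of 0.12, -0.07 and 0.61.

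The 10 genes with the largest smallest fall were taken from those below every other library and with a mean of at least 5 normalised CPM in each other region. They included ion channel, calcium-binding and synaptic vesicle genes. Scn4b, a sodium channel beta subunit, lay at 1.39 to 5.94 normalised CPM in OB (median 2.30), 129.8 to 358.2 in BRN (median 192.2), 97.24 to 146.7 in CBL (median 122.8) and 409.2 to 652.3 in BST (median 593.9). Its OB libraries were all below the others, with log2FC -6.36 ± 0.0930 against BRN, -5.66 ± 0.0910 against CBL and -7.90 ± 0.0949 against BST. Pvalb, the calcium buffer parvalbumin of fast-spiking neurons, lay at 3.50 to 12.20 normalised CPM in OB (median 5.80), 67.82 to 279.01 in BRN (median 153.6), 725.9 to 1032 in CBL (median 900.9) and 246.4 to 311.1 in BST (median 275.8), with log2FC -4.59 ± 0.105 against BRN, -7.14 ± 0.111 against CBL and -5.47 ± 0.105 against BST. Syt2, a fast calcium sensor of transmitter release, had an OB median of 3.53 and a smallest fall of -4.47, against BRN. Rph3a, the vesicle protein rabphilin, had an OB median of 25.92 and a smallest fall of -3.69, against CBL. The calcium-binding protein genes Cabp7 and Caln1 had smallest falls of -3.81 and -3.23. Kcnab1, a potassium channel beta subunit, had -3.03, Htr1b, a serotonin receptor, -3.31, and Gprin3 -3.45, each against BRN. Ccdc153, which is made by ciliated ependymal cells, had an OB median of 0.265 and a smallest fall of -4.15, against CBL.

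Lists for neuron types of the other regions had few genes called higher, where 3.87% of all genes tested were higher and 3.31% lower. Of 10 genes of telencephalic excitatory neurons, 3 were lower than in each region (Neurod6, Neurod2 and Bhlhe22) and none was higher, with a median log2FC of -2.41, 0.43 and 1.09 (-2.41, 0.43 and 0.76 with bounds). Their sum was 1517 to 1855 in OB (median 1668), 3089.7 to 4271 in BRN (3516), 750.1 to 921.3 in CBL (824.1) and 225.99 to 335.3 in BST (255.9) normalised CPM, so that OB lay under BRN and over CBL and BST. Neurod6, a basic helix-loop-helix factor of cortical projection neurons, had log2FC -4.25 ± 0.107 against BRN, -2.19 ± 0.109 against CBL and -1.75 ± 0.111 against BST. Neurod2 had a smallest fall of -1.05, against BST, and lost its call without the mice of replicate 3 (-0.95) and with scaling by library totals (-0.98). None of 10 striatal genes was called, but their median log2FC was -3.48, 0.80 and -0.22, the first against BRN, which holds the striatum. Drd1, the D1 dopamine receptor, had -3.94 against BRN. Of 12 hypothalamic and thalamic genes, Trh was higher and Prkcd, a protein kinase C, lower (smallest fall -1.47), and the median log2FC was -3.34, 0.28 and -0.35 (-2.18, 0.00 and -0.77 with bounds).

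All 15 cerebellar granule and Purkinje cell genes were lower than in CBL, a direction that their choice sets, and 5 were lower than in each region (Calb1, Pvalb, Barhl1, En2 and Fat2). Their median log2FC was -0.72, -7.14 and -2.45 (-0.72, -6.44 and -2.45 with bounds). Calb1, the calcium buffer calbindin, lay at 10.84 to 17.22 normalised CPM in OB (median 14.10), 121.2 to 197.2 in BRN (median 139.8), 1037 to 1403 in CBL (median 1199) and 64.77 to 143.99 in BST (median 80.56), below all others in OB. Barhl1, a homeobox factor, was at 3 counts or fewer in each OB library and at least 8.68-fold lower than in BRN. Likewise all 16 brainstem neuron genes were lower than in BST, and 5 were lower than in each region (Slc6a5, Tph2, Chat, Slc5a7 and Sncg). The median log2FC was -2.96, -1.78 and -8.56 (-0.25, -1.09 and -6.21 with bounds), and the sum was 3.24 to 5.38 in OB (median 4.21), 18.95 to 92.05 in BRN (49.80), 34.95 to 76.89 in CBL (47.25) and 648.3 to 1094 in BST (1027) normalised CPM. Hoxb3, Hoxa5 and Hoxc4 had no count in OB. Slc6a5, the glycine transporter of inhibitory neurons, had an OB median of 0.0596 and a BST median of 504.2. Tph2, the serotonin-making enzyme of raphe neurons, had an OB median of 0.619 and a smallest fall of -1.22, against CBL. Chat, which makes acetylcholine, lost its call without the mice of replicate 1 (-1.66), 2 (-1.04) or 3 (-1.38), En2 without those of replicate 1 (-1.41) or 3 (-2.26), and Slc5a7 without those of replicate 3 (-1.53). So in OB the serotonergic, cholinergic and glycinergic cell-body genes lay close to 0.

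Of 18 factors that pattern the brain along its length, 1 was higher (Dlx5) and 4 were lower (Otx2, En1, En2 and Pax5). Among all genes tested these shares were 3.87% and 3.31%. The median log2FC was -1.89, -1.72 and -4.49 (-0.45, 0.00 and -2.79 with bounds). En1, a midbrain and hindbrain homeobox factor, had no count in OB and was at least 2.64-fold lower than in BRN, the nearest region, and 10.66-fold lower than in CBL. Without the mice of replicate 3, En1 (at the floor in OB, so that no fold is given) and En2 (-2.26) lost their calls, as did En2 without those of replicate 1 (-1.41), and Pax5 without those of replicate 2 (-3.82) and with BRN 2 h replicate 3 and 18 h replicate 2 left out (-3.21). The Hox family (39 genes, 21 tested, chosen after seeing the data) summed to a median of 0.180 normalised CPM in OB and 217.2 in BST, with none called against all 3 regions.

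Myelin was lower in OB. Of 12 oligodendrocyte and myelin genes, 7 were lower than in each region (Mbp, Mobp, Mog, Opalin, Ermn, Ugt8a and Fa2h) and none was higher, with a median log2FC of -1.51, -1.09 and -2.65. The sum was 3337 to 5299 in OB (median 4392), 7352 to 32436 in BRN (13889.7), 6453 to 11397 in CBL (8853) and 24532 to 29396 in BST (26498) normalised CPM. Mbp, myelin basic protein, lay at 1271 to 2125 normalised CPM in OB (median 1666), 2701 to 16714 in BRN (median 5718), 2511 to 5019 in CBL (median 3486) and 9737 to 11045 in BST (median 10266). Each OB library was below all others, with log2FC -2.01 ± 0.135 against BRN, -1.13 ± 0.129 against CBL and -2.64 ± 0.136 against BST. Mog, a myelin surface protein, had log2FC -1.76 ± 0.0588 against BRN, -1.42 ± 0.0566 against CBL and -2.94 ± 0.0585 against BST. Mobp (-1.05 against CBL) lost its call with a lane term (-0.94) and without the mice of replicate 3 (-0.95), Ermn (-1.16 against BRN) with BRN 2 h replicate 3 and 18 h replicate 2 left out (-0.97) and with scaling by library totals (-0.98), and Ugt8a (-1.02 against BRN) in the same 2 settings (-0.86 and -0.84), with the 2 shallow BRN libraries put back (-0.98), without the filter (-0.99), without the mice of replicate 1 (-0.90) or 2 (-0.99) and without OB 0 h replicate 3 (-0.997). None of 9 oligodendrocyte precursor genes was called, with a median log2FC of -0.50, 0.61 and -0.81. Pdgfra, their growth factor receptor, had -0.36, 0.62 and -0.81.

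Of 13 astrocyte genes, Agt, the angiotensinogen gene, was lower than in each region and none was higher, where 3.31% and 3.87% of all genes tested were. The median log2FC of the 13 was -0.24, -0.35 and -0.76. Agt lay at 13.24 to 35.20 normalised CPM in OB, below every other library, with log2FC -2.02 ± 0.106 against BRN, -1.58 ± 0.102 against CBL and -2.30 ± 0.102 against BST. None of 10 microglia genes was called against all 3 regions, but 9 were higher than in CBL, and the median log2FC was -0.22, 1.39 and 0.55. Cx3cr1, the fractalkine receptor of microglia, had 1.70 against CBL. None of 11 endothelial and pericyte genes was called against all 3, while 7 were lower than in BST, with a median log2FC of -0.02, -0.29 and -1.07. None of 12 meningeal fibroblast genes was called (0.56, 0.85 and 0.75), nor any of 5 red blood cell genes (-1.09, 0.11 and -0.09). Of 12 genes of ciliated ependymal cells, a list added after seeing the data, 11 were tested and 4 were lower than in each region (Ccdc153, Tmem212, Rarres2 and Cfap126, the last 2 at the threshold), with a median log2FC of -0.59, -0.86 and -0.77 and a sum of 26.37 to 37.27 in OB (median 31.23), 36.05 to 111.7 in BRN (61.98), 37.48 to 61.85 in CBL (50.62) and 51.18 to 73.70 in BST (63.28) normalised CPM. Cfap126 lost its call without the mice of replicate 1 (-0.91), 2 (-0.87) or 3 (0.03), without OB 0 h replicate 3 (-0.97) and in 6 other settings, Rarres2 without those of replicate 1 (-0.98) or 2 (-0.89) and in 4 other settings, and Tmem212 without those of replicate 3 (-3.33).

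Of 8 choroid plexus genes, 7 were lower than in each region (Ttr, Kl, Folr1, Kcnj13, Clic6, Slc4a5 and Otx2) and 1 was higher (Aqp1), with a median log2FC of -2.50, -4.23 and -3.20. The choroid plexus lies in the ventricles of the other regions. The sum was 55.63 to 407.99 in OB (median 70.16), 521.5 to 1469.6 in BRN (955.5), 709.6 to 5301 in CBL (2469) and 34.55 to 3796 in BST (2018) normalised CPM, and without OB 0 h replicate 3 the highest OB library had 89.70. Ttr lay at 0.385 to 326.4 normalised CPM in OB (median 1.44), 478.1 to 1415 in BRN (median 921.1), 635.4 to 4996 in CBL (median 2333) and 21.79 to 3524 in BST (median 1872), so that this OB library overlapped with the lowest BST ones. Aqp1, the water channel that is also known from sensory axons and ensheathing cells, lay at 47.97 to 79.63 normalised CPM in OB (median 60.80), 0 to 6.88 in BRN (median 3.73), 1.98 to 20.26 in CBL (median 8.21) and 0 to 17.61 in BST (median 6.85). It was above all other libraries in OB, with log2FC 4.11 ± 0.314 against BRN, 2.93 ± 0.248 against CBL and 3.83 ± 0.276 against BST. Folr1 (-3.15), Kcnj13 (-0.35) and Slc4a5 (-3.63) lost their calls without the mice of replicate 3.

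Some of the bulb's differences were called at each fasting time. From the fed mice to the longest fast, in order of time, 600, 572, 630, 699, 522 and 620 genes were higher than in each region, and 455, 482, 501, 526, 388 and 520 were lower. Genes called at all 6 times numbered 335 higher (1.81%) and 177 lower (0.957%), and these counts were 215 higher with a lane term and as few as 106 lower without the mice of 1 replicate number. Th was among the former, with OB means of 261.4, 255.9, 249.9, 214.3, 247.3 and 250.9 normalised CPM from 0 to 22 h, and its difference did not pass the test of variation over time (adjusted p 0.539). Eomes had 159.1, 144.7, 165.01, 133.04, 143.05 and 141.4 (adjusted p 0.944).

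The difference between OB and the mean of the other regions varied with fasting time for 352 genes (1.90%) at an adjusted p under 0.05, and for 2831 (15.3%) at an unadjusted p under 0.05. With mouse as a block 263 varied, 239 of the 352 among them. Of the 352, 17 were also called higher (14) or lower (3) on average. Lgr6, a receptor for R-spondins, had the smallest p (adjusted p 6.75e-05). It was higher in OB than in each region at all 6 times. Its OB means were 111.7, 116.7, 127.5, 108.8, 95.69 and 108.9 normalised CPM from 0 to 22 h, and its log2 difference from the mean of the other regions lay between 3.58 at 18 h and 5.03 at 8 h. At these 2 times the means of the other regions were 7.84 and 2.62 in BRN (2 libraries each), 6.86 and 3.83 in CBL, and 9.42 and 5.94 in BST, so the change in the difference came in larger part from these regions than from OB. Huwe1, a large ubiquitin ligase, had OB means of 233.99, 221.4, 270.5, 273.7, 152.4 and 227.2, lowest at 18 h (adjusted p 1.76e-04). Among the others of the 10 with the smallest p were Soga1, Lyst, Htt (huntingtin), Ep400 (a chromatin remodeller), Fat3 (an atypical cadherin), Pclo (the synaptic scaffold piccolo) and Pltp (phospholipid transfer protein). Among the 352, the difference was lowest at 18 h for 256 and highest at 12 h for 181. The 352 were long genes, with a median exon length of 9654 bases where all genes tested had 3856, and the slope of OB levels on exon length in single libraries, in log2 units per 10-fold length, lay between -0.64 and -0.17 at 18 h and between -0.19 and 0.32 at the other times. In BRN, which is part of the difference, it lay between 0.62 and 0.83 at 0 h, between -0.10 and 0.48 at 2 h and between -0.71 and 0.25 from 8 h on, while in CBL and BST all libraries lay between -0.22 and 0.26. With a lane term 749 genes varied, 290 of the 352 among them. With the length trend taken out of each library 23 varied, with the 18 h libraries left out 3, and with the 2 shallow BRN libraries put back 4. Without the mice of replicate 1, edgeR called 0 at an adjusted p under 0.05 and 795 at an unadjusted p under 0.05, while DESeq2 on all 70 libraries called 1223. In Lgr6 and Huwe1 the adjusted p was 0.374 and 0.906 without the mice of replicate 1, and in Huwe1 it was 0.195 with the 18 h libraries left out, 0.236 with the length trend taken out and 0.354 with the 2 shallow BRN libraries put back. The part of transcript length in the variation with time was not tested gene by gene.

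**Figure D3:**
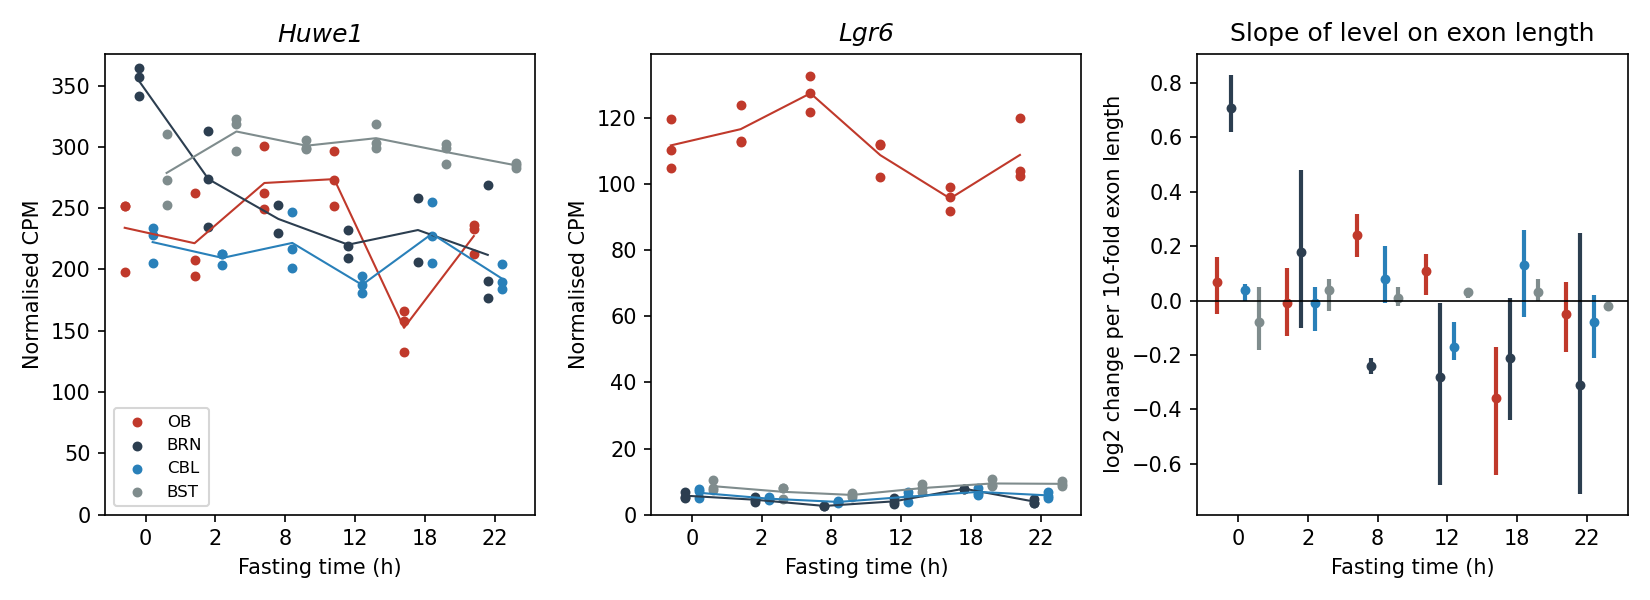
Normalised CPM of Huwe1 (left) and Lgr6 (middle) by fasting time, with each point 1 library and lines through the means, and (right) the slope of level on exon length in log2 units per 10-fold length, with dots at the mean and bars from the lowest to the highest library. Huwe1 is lowest in OB at 18 h, with a mean of 152.4, the time at which the OB slopes run from -0.64 to -0.17.

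Promoter windows of the higher genes were searched for 4 short motifs, chosen after seeing the data, on both strands. Windows ran from 250 bases before to 50 after the gene start, and 12540 tested genes had one (489 called higher, 400 called lower). The cyclic AMP response element TGACGTCA was in 3.05% of all windows, 1.64% of those of higher genes and 6 of the 400 of lower genes. The Ebf factor motif CCCNNGGG was in 18.0%, 24.5% and 19.2%, the T-box motif AGGTGTGA in 0.789%, 0.818% and 0.750%, and the homeodomain core TAATTA in 2.85%, 4.50% and 2.25%. The shares were not tested against each other, and a match is a description of the sequence, not a bound site. Promoters are shown for 3 genes that were higher in the bulb, 1 each of the dopaminergic, sensory neuron and neuroblast lists, because each holds 1 of the motifs, whose match is in capitals. The sequences are from RefSeq on GRCm38.p6, written 5′ to 3′ along the strand of the gene. The Th window (chr7:142899946-142900245, minus strand) holds the cyclic AMP response element at base 206, the Cnga2 window (chrX:71991599-71991898, plus strand) the Ebf motif at base 185 and the Dcx window (chrX:143933170-143933469, minus strand) the homeodomain core at base 212.
Th: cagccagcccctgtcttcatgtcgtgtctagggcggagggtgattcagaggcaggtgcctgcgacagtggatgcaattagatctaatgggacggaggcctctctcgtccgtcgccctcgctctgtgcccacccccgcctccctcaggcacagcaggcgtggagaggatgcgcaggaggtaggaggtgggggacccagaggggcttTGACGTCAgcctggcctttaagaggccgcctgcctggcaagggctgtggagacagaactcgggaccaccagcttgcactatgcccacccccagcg
Cnga2: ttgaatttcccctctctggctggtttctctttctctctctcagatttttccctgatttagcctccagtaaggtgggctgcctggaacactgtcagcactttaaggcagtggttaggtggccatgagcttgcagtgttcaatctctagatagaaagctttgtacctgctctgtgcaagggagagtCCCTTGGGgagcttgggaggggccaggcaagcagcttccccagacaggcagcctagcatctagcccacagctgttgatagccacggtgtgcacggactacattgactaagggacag
Dcx: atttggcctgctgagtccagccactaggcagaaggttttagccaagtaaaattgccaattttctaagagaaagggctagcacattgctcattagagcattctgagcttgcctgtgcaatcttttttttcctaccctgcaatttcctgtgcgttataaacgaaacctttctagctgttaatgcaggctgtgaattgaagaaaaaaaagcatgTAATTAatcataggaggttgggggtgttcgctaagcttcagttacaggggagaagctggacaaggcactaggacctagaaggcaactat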

How the data were processed

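The deposited table holds raw read counts per gene, which the authors made with HTSeq 0.9.1 from reads aligned by TopHat2 2.1.1 to GRCm38.p5. Of 53686 gene entries, 18381 had no count in any brain library. Counts of the 70 libraries used were fitted with edgeR 4.0.16 (R 4.3.3, limma 3.58.1) by quasi-likelihood with TMM scaling, as a mean for each region and fasting time. Genes with at least 1.086 CPM in 3 or more libraries were tested (18496). OB was compared with BRN, CBL and BST within each fasting time and over the mean of the 6 times. An F test with 5 degrees of freedom asked whether the difference from the mean of the regions varied with time. Adjusted p are Benjamini-Hochberg values over all genes tested, and tests are two-sided.

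Some genes that these rules pick, or that the lists hold, are not reported here. The 20 named higher genes had the largest smallest log2FC. They came from those called higher, above every other library and at 5 normalised CPM or more in OB. The 10 with the largest smallest fall came from those called lower and below every other library. They also had a mean of 5 normalised CPM or more in each other region, with no minimum in OB. Also named were the 5 with the highest RPKM among those called higher and the 10 with the smallest p for variation with time. Members and lists were chosen with earlier results of these data known. The 28 lists held 353 genes, of which 343 were tested, and 4 further lists, the symbol families and the motifs were chosen after seeing the data. A group with 3 counts or fewer in each library was taken as at the floor, and folds against it are bounds at 3 counts per library (1.17 CPM for BRN, 0.438 for CBL, 0.425 for BST and 0.347 for OB). Exon lengths were from Gencode M21, while the authors counted on release M16, and 97.48% of tested genes had one. Promoter windows were the first listed per gene in RefSeq GRCm38.p6.

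Animal numbers in the labels pair the regions of a mouse. Within fasting times, gene profiles of OB and BRN of 1 mouse correlated at a median of 0.079 (16 pairs), of OB and CBL at 0.038 and of OB and BST at 0.028, where different mice gave -0.034, 0.003 and 0.001, so the block by mouse was an alternative. In all, 19 alternative settings were run, 16 planned and 3 chosen after seeing the data. They changed the scaling, the filter, the tool (DESeq2 1.42.0), the threshold, the blocks, the lane, the length trend and the libraries used. The code was tested on simulated data. Tables and figures used Python 3.11.15, pandas 2.3.3, numpy 2.4.6 and matplotlib 3.10.9.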

Additional observations from a re-analysis of the deposited data

Results flagged for a closer look

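A test of the difference itself over fasting time picked out the following. For 352 genes the difference between OB and the mean of the other regions varied with fasting time. Among the 10 with the smallest p were Lgr6 (adjusted p 6.75e-05), Huwe1 (1.76e-04), Soga1 (0.00112), Lyst (0.00146), Htt (0.00146), Ep400 (0.00170), Fat3 (0.00252), Pclo (0.00252) and Pltp (0.00252). Each mean was over 3 OB mice a time. Of those named, Lgr6, Soga1 and Pltp kept the call with the length trend taken out, Lgr6 and Pltp with the 18 h libraries left out, and Lgr6 and Soga1 with the 2 shallow BRN libraries put back, while none of the 10 kept it without the mice of replicate 1, where Lgr6 had an adjusted p of 0.374.

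Among the genes of the lists the same test passed for 12 of 343 tested (3.50%, where all genes tested had 1.90%). They included the interneuron gene Calb2 (adjusted p 0.0389), the neuroblast genes Dcx (0.0169), Tnr (0.0107) and Erbb4 (0.0319) and the potassium channel gene Kcna3 (0.00493). Calb2 had OB means of 608.6 normalised CPM at 12 h and 839.2 at 18 h, where OB 18 h replicate 1 held 1031 and the other 2 743.4 and 743.1, and BRN means of 136.7 and 86.29. The difference of Dcx was largest at 8 h and smallest at 18 h, with means of 280.02 and 196.95 in OB and 18.39 and 32.39 in BRN. The test also passed for the vascular genes Flt1 (0.0277), Rgs5 (0.0457) and Slco1a4 (0.0326), for Pde10a of striatal neurons (0.0175), for the clock gene Per3 (0.0327), for Ptgds of the meninges (0.0461) and for Ttr of the choroid plexus (0.0326). OB 0 h replicate 3 held 326.4 normalised CPM of Ttr, and without this library the adjusted p of Ttr was 0.964 and that of Ptgds 0.121, while the other 10 of these 12 list genes kept the call. None of the 12 kept it without the mice of replicate 1 or with the 18 h libraries left out, 1 (Kcna3) with the 2 shallow BRN libraries put back, 2 (Flt1 and Kcna3) with the length trend taken out, 7 with mouse as a block (Calb2, Flt1, Per3, Ptgds and Ttr did not) and 8 with a lane term.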

How the results depend on the processing

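Of 204 counts under the alternatives, 21 were lower and 19 higher than the value reported by over 1.5 times. Causes were not tested except where the construction shows them. The scaling by library totals moved the median log2FC against BRN by 0.17, and 3000 genes were then higher and 1903 lower there.

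Without the filter on low counts, 1153 genes were higher than each region and 3417 higher than BRN, and 1456 varied with time. With a filter 10 times as strict, which tests fewer genes, 363 were higher and 330 lower than each region, 1046 higher and 1380 lower than BRN, 1331 and 1042 than CBL, and 1277 and 1309 than BST. With no fold threshold the counts were 2595 and 2297 against each, 7200 and 6752 against BRN, 6588 and 6808 against CBL, 7447 and 6845 against BST, and 656 and 480 at all 6 times. Tested against a log2FC of 1, 383 were lower than each, 1356 higher than BRN, and 173 higher and 76 lower at all 6 times. With a lane term 215 were higher at all 6 times, and Obp2a reversed to -1.55.

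Leaving out the mice of 1 replicate number at a time gave 347 to 586 genes lower than each region, 1877 to 3571 higher than BRN, as few as 106 lower at all 6 times, and 0 to 1223 that varied with time. A lone BRN library left in a group was then assumed to vary like the other groups. The genes that varied with time numbered 1223 by DESeq2, 221 with library totals, 749 with a lane term, 858 with BRN 2 h replicate 3 and 18 h replicate 2 left out, 4 with the shallow BRN libraries put back and 23 with the length trend taken out. In settings chosen after seeing the data, leaving out OB 0 h replicate 3 gave 611 genes lower than each region and 174 lower at all 6 times, and the genes that varied with time numbered 3 with the 18 h libraries left out and 15 with the length trend taken out and mouse as a block.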

Other observations

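Neutrophil and interferon genes had members called higher in OB, where 3.87% of all genes tested were. Both lists were chosen after seeing the data, so the shares called are set in part by that choice. Of 10 tested neutrophil granule genes (14 listed, chosen after seeing the data), 8 were higher than in each region (S100a8, S100a9, Camp, Ngp, Ltf, Lcn2, Retnlg and Chil3), with a median log2FC of 2.95, 2.00 and 2.20 against BRN, CBL and BST. Their sum was 3.97 to 184.5 in OB (median 15.53), 2.69 to 28.60 in BRN (5.10), 2.32 to 61.33 in CBL (5.76) and 5.19 to 86.57 in BST (7.98) normalised CPM. S100a9, a calcium-binding protein of neutrophils and the most abundant per length at 14.12 RPKM, ranged from 0.275 to 52.28 in OB, and OB 12 h replicate 2 made the top of the sum. In BRN, CBL and BST the top was the mouse of 2 h replicate 2, which was second in OB (83.85). Of 14 interferon response genes, chosen after seeing the data, 5 were higher than in each region (Isg15, Mx1, Mx2, Cxcl9 and Cxcl10) and none was lower, with a median log2FC of 1.44, 1.55 and 0.63 (1.44, 1.35 and 0.58 with bounds). Their sum was 81.71 to 242.97 in OB (median 103.99), 39.44 to 73.38 in BRN (52.26), 49.81 to 79.61 in CBL (60.50) and 63.20 to 184.2 in BST (69.04) normalised CPM, and OB 12 h replicate 2 was again the highest OB library. Mx1, an antiviral GTPase gene, lay at 0.913 to 2.68 normalised CPM in OB (median 1.23), 0 to 1.24 in BRN (median 0.196), 0 to 0.528 in CBL (median 0.226) and 0 to 1.80 in BST (median 0.195). With a lane term 1 of the 8 neutrophil genes (Ngp) and all 5 interferon genes kept their calls. Without the mice of replicate 1, S100a9 (1.33), Chil3 (1.61) and Isg15 (0.95) lost theirs, as did Lcn2 without those of replicate 2 (1.23) or 3 (1.54) and with the 18 h libraries left out (1.35), and S100a9 (1.56) and Camp (1.76) without those of replicate 3. The part of blood or nasal tissue in these values was not tested.

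Some families, chosen after seeing the data by how their symbols begin, had members called higher. Among all genes tested, 3.87% were called higher and 3.31% lower, and the shares of the families were not tested against these. Of 17 tested Sox genes, factors of progenitors and neurons, 5 were higher than in each region (Sox1, Sox11, Sox12, Sox2 and Sox4) and 1 was lower (Sox14). The Sox family summed to 459.96 to 530.9 normalised CPM in OB, with medians of 269.3 in BRN, 198.6 in CBL and 268.5 in BST. Of 9 Sp zinc-finger genes, 3 were higher (Sp7, Sp8 and Sp9). Of 88 tested genes of potassium channels and their regulators (symbols that begin with Kcn), 6 were higher (Kcna4, Kcnb2, Kcnf1, Kcnj4, Kcnk15 and Kcnn4) and 8 lower (among them Kcna6, Kcnab1, Kcnc4, Kcne2, Kcnj13, Kcns1 and Kcns3). Of 21 tested mitochondrial genes 3 were lower, all transfer RNA genes (mt-Te, mt-Tt and mt-Ty). The mitochondrial sum was 36778 to 62818 normalised CPM in OB (median 44207) and 33794 to 148636 in BRN (83534), with medians of 51862 in CBL and 58936 in BST. By biotype, protein-coding genes made 80.5% of all genes tested, 82.4% of those called higher and 77.9% of those called lower. Long intergenic noncoding genes made 3.11%, 6.28% and 5.72% of the same sets, and processed pseudogenes 5.56%, 1.68% and 0.817%.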
